A study of Homo sapiens with 15 samples.

Results

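The genes described here encode the steps by which a cell takes up glucose and breaks it down to lactate. They are the glucose transporter genes SLC2A1 and SLC2A3, the hexokinase genes HK1 and HK2, the PFKFB3 and PFKFB4 genes, the lower glycolytic enzyme genes PGK1, ENO1 and LDHA, and PDK1, whose product controls the entry of pyruvate into mitochondria. These 10 genes were found by symbol among the 58219 genes of the count table, and all 10 passed the filter on low counts, as did 17599 genes in all. They were measured by RNA-Seq in 15 libraries of BEAS-2B, an immortalized human bronchial epithelial line grown on collagen in serum-free medium. PM2.5 is fine particulate matter, here collected in Beijing in winter and suspended in the medium. In the 24-h protocol cells received vehicle, a single low dose (1 µg/cm2) or a single high dose (30 µg/cm2) of it, and in the 7-day protocol they received vehicle or the low dose daily. The daily doses numbered 7 by the labels, while the methods section counts 1 fewer. Each of these 5 conditions was represented by 3 experiments. The cells of the 7-day protocol were plated at a lower density than those of the 24-h protocol, so time in culture, density and experiment cannot be told apart between protocols. All values come from 1 cell line cultured under liquid medium.

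Glucose enters epithelial cells through facilitative transporters of the SLC2A family and is trapped as glucose 6-phosphate by hexokinase. The PFKFB enzymes set the level of fructose 2,6-bisphosphate, which activates the committing step of glycolysis, and the lower enzymes carry the carbon to pyruvate. Pyruvate is either reduced to lactate by lactate dehydrogenase or oxidized in mitochondria by the pyruvate dehydrogenase complex, which PDK1 switches off by phosphorylation. Most of these genes are well-known targets of the hypoxia-inducible factors, and several are also targets of MYC.

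Total counts were 21460981 to 34724765 per library, with a median of 29243177. Expression is given as CPM, a gene's count scaled to a common library size, after adjustment by the trimmed mean of M-values (TMM), and a count of 3 corresponded to 0.0867 to 0.149 CPM. A gene was taken to differ when the edgeR quasi-likelihood test gave a Benjamini-Hochberg adjusted p under 0.05 over all 17599 genes and the log2 fold-change was at least 0.6 in size. Experiment 2 of the 24-h protocol stood apart from experiments 1 and 3 in all 3 conditions, with a chi-square per degree of freedom of 76.6 to 181 against them and of 4.44 to 18.1 between experiments 1 and 3. Within the 7-day protocol the largest distances, 19.7 and 25.5, were those between experiment 3 of daily PM2.5 and the other experiments of that condition. All 7 epithelial markers checked (keratins, EPCAM, CDH1 and TP63) passed the filter, as did all 5 mesenchymal markers (VIM among them), 1 of 5 immune markers (CD14) and 0 of 3 endothelial markers. The immune markers PTPRC and CD68 and the endothelial marker CDH5 had no more than 3 counts in any library.

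Short stretches of promoter are shown for 5 of the genes, because they hold the letters ACGTG, the core of the hypoxia response element, within the 250 bases before an annotated start. In the RefSeq promoter table (GRCh38.p14) 9 of the 10 genes were listed, SLC2A3 being the exception. ACGTG was present on either strand in 5 of these 9 genes (HK2, PFKFB3, PGK1, LDHA and PDK1) and in 21.7% of all 27305 genes of the table. The E-box CACGTG, which contains ACGTG on both strands, was present in 3 of the 9 (HK2, PFKFB3 and LDHA) and in 7.73% of all genes. The capitals mark the match, which is CACGT where ACGTG lies on the strand opposite to the gene, and all windows are on the plus strand of GRCh38, 5′ to 3′.
HK2, chr2:74834964-74834993: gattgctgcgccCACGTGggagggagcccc
PFKFB3, chr10:6202812-6202841: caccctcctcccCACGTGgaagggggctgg
PGK1, chrX:78104034-78104062: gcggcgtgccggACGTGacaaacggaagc
LDHA, chr11:18394366-18394395: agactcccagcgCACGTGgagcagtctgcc
LDHA, chr11:18394464-18394493: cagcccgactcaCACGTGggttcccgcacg
PDK1, chr2:172556061-172556089: cctgctgcccgcCACGTccctcacgtacc
Relative to the start, the LDHA matches shown begin at -185 and -87 and the PGK1 match shown at -202. Further matches, not capitalized above, begin at -73 in LDHA, at -183 in PGK1 and at -8 in PDK1, and HK2 also holds others. SLC2A1, HK1, PFKFB4 and ENO1 held no match in their windows. A match is a description of the letters only.

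The transcripts of these genes differed widely in abundance. Per kilobase of exon, ENO1 stood highest in vehicle cells at 24 h, with 965 ± 155 CPM per kb (SD, n = 3), followed by LDHA with 190 ± 42.3 and PGK1 with 141 ± 21.4. HK1 followed with 32.5 ± 7.50 CPM per kb and SLC2A1 with 28.0 ± 0.585. HK2, PFKFB3 and PFKFB4 lay at 6.52 ± 2.60, 5.78 ± 2.27 and 4.19 ± 0.358 CPM per kb, PDK1 at 0.934 ± 0.243 and SLC2A3 at 0.164 ± 0.0311. LDHA and PGK1, HK1 and SLC2A1, and HK2, PFKFB3 and PFKFB4 were neighbours whose ranges of mean ± SD overlapped. The order was the same in vehicle cells of the 7-day protocol but for SLC2A1, which at 46.6 ± 4.27 CPM per kb stood above HK1 at 26.9 ± 0.785. Together the 10 genes took 0.588 ± 0.0844% of all counted reads in vehicle cells at 24 h and 0.246 ± 0.00893% in vehicle cells of the 7-day protocol, and ENO1 alone made up 0.362% and 0.119%.

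**Figure D1:**
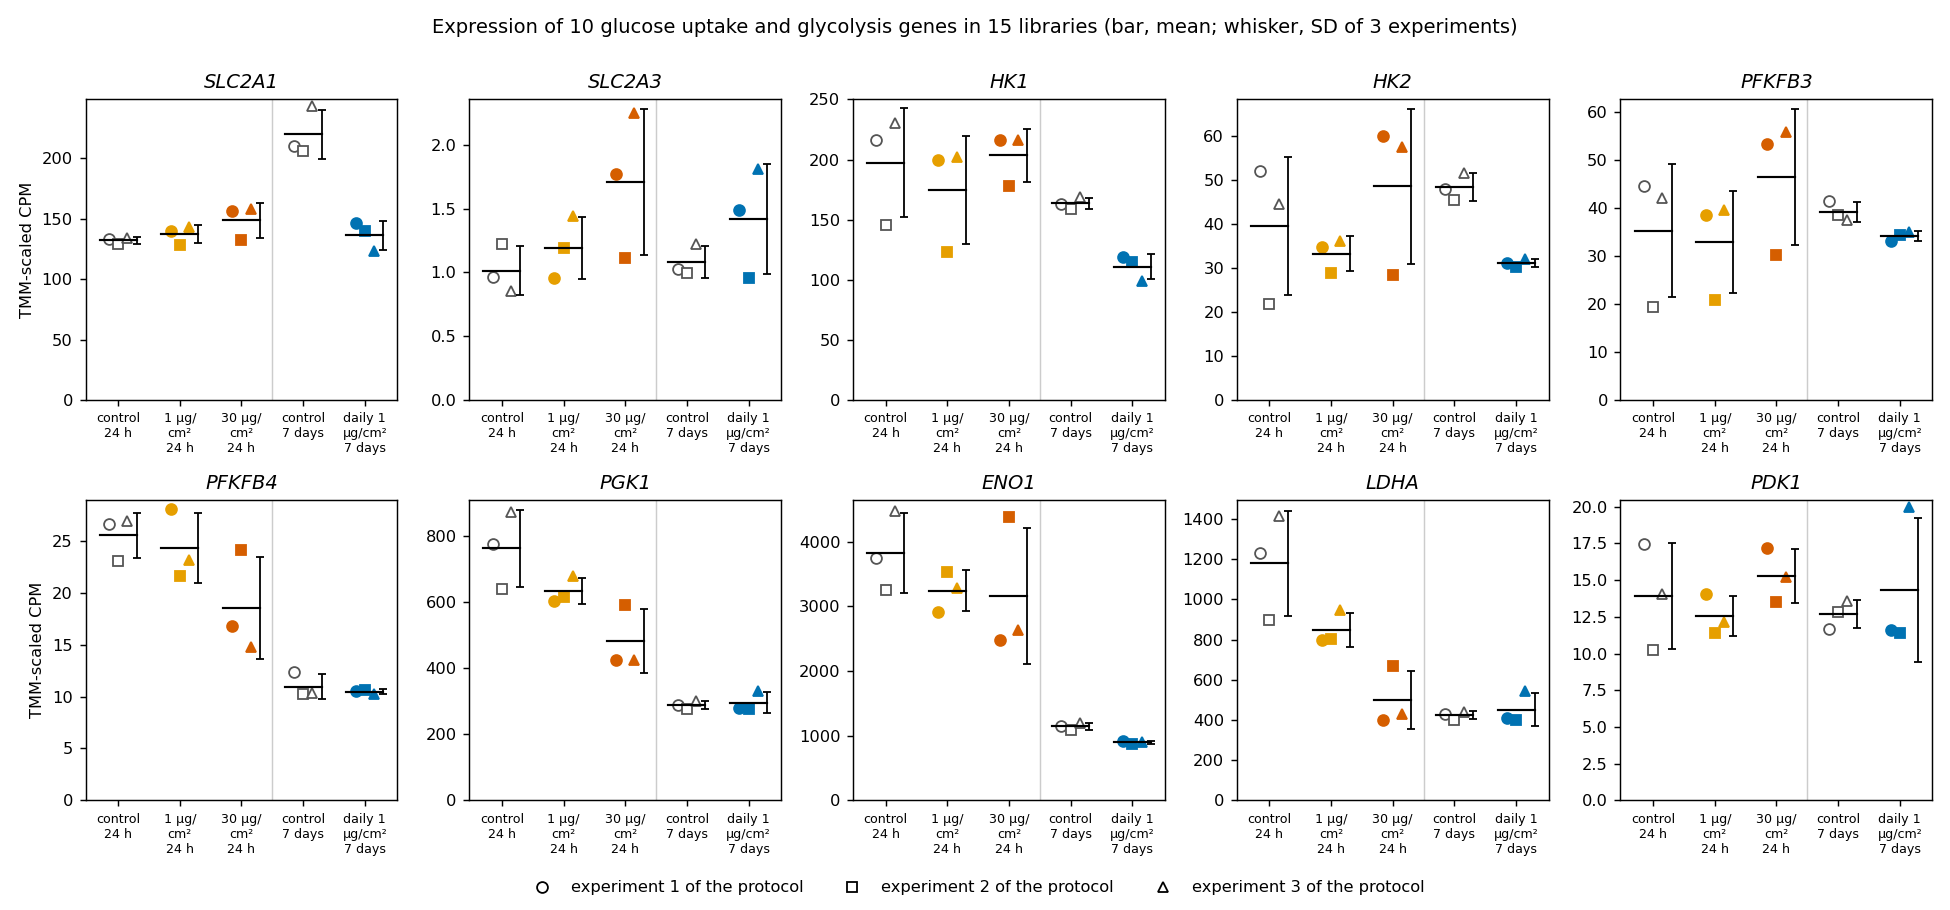
Expression of the 10 genes in each of 15 libraries, in TMM-scaled CPM on linear axes that start at 0; symbols mark the experiment of each protocol, open symbols are vehicle, bars are means and whiskers are the SD of 3 experiments. LDHA and PGK1 fall from vehicle to 30 µg/cm2 at 24 h, SLC2A1 is highest in vehicle cells of the 7-day protocol, and the squares of 24-h experiment 2 often lie apart.

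The first comparison asked how these genes responded to a single high dose of PM2.5. LDHA, which encodes the A subunit of lactate dehydrogenase, and PGK1, which encodes the phosphoglycerate kinase of the first ATP-yielding step, were lower after 30 µg/cm2 for 24 h, and no gene of the 10 was higher. LDHA (ENSG00000134333.13, chr11:18394388-18408425, plus strand) measured 1229, 897 and 1415 CPM in the vehicle cells of experiments 1, 2 and 3 and 402, 667 and 429 CPM in cells given 30 µg/cm2. Every treated library lay below every vehicle library. LDHA was thus 2.36-fold lower, a log2 fold-change of -1.24 ± 0.211 (SE; edgeR, adjusted p = 0.00205). PGK1 (ENSG00000102144.13, chrX:78065188-78129296, plus strand) measured 775, 640 and 871 CPM in vehicle cells and 425, 592 and 426 CPM after 30 µg/cm2, again without overlap. It was 1.59-fold lower, with a log2 fold-change of -0.67 ± 0.154 (edgeR, adjusted p = 0.0137). Of all genes tested, 8.07% passed the same thresholds in this comparison and 4.24% were lower, beside 2 of these 10, and 11.1% had every treated library below every vehicle library, beside the same 2. Fewer cells expressing a transcript and less of it per cell cannot be told apart in these bulk libraries. The summed epithelial markers were also lower after 30 µg/cm2, at 843 to 1309 CPM against 2004 to 2522 CPM in vehicle cells. The summed mesenchymal markers were 346 to 567.4 CPM against 491.5 to 788.5 CPM, ranges that overlap. The part of these markers in these results was not tested.

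The size of the LDHA and PGK1 differences varied with the experiment. Within experiments 1 and 3 the treated library lay below its own vehicle library by a log2 difference of -1.61 and -1.72 for LDHA, and in experiment 2 by -0.43. For PGK1 the same differences were -0.87 and -1.03, against -0.11 in experiment 2. LDHA passed the thresholds in all 15 fits that left out 1 library, whereas PGK1 was lost without the vehicle library of experiment 3 (adjusted p = 0.0527) or the treated library of experiment 1 (0.064) or 3 (0.0799). Fitted with only these 6 libraries, neither gene passed, where 2.23% of all genes did, with edgeR adjusted p-values of 0.0568 for LDHA and 0.137 for PGK1, and the adjusted p ranged up to these values over all alternatives.

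The remaining 8 genes did not pass at 30 µg/cm2 over the 3 experiments. ENO1, the enolase of the lower pathway (ENSG00000074800.13, chr1:8861002-8879249, minus strand), measured 3751, 3245 and 4468 CPM in vehicle cells and 2473, 4376 and 2638 CPM in treated cells. Treated cells were thus lower in experiments 1 and 3 and higher in experiment 2, and the log2 fold-change was -0.27 ± 0.195 (adjusted p = 0.445). PFKFB4, whose product both makes and removes fructose 2,6-bisphosphate, measured 26.7, 23.1 and 27.0 CPM in vehicle cells and 16.8, 24.1 and 14.8 CPM in treated cells, with the same split between experiments. Its log2 fold-change was -0.46 ± 0.172 (adjusted p = 0.114). PFKFB3, which encodes the family member with the greatest balance towards fructose 2,6-bisphosphate synthesis, measured 44.6, 19.4 and 42.0 CPM in vehicle cells and 53.3, 30.2 and 55.9 CPM in treated cells. It was higher in the treated library of all 3 experiments, by 0.26, 0.64 and 0.41 on the log2 scale, but the spread between experiments was wider than that difference (log2 fold-change 0.39 ± 0.305, adjusted p = 0.489). Fitted with a replicate block for the experiment, its adjusted p was 0.00388, at a log2 fold-change of 0.43 that stayed under the size threshold.

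Among the 10 genes, none of uptake or of the first step passed at this dose. SLC2A1, the main basal glucose transporter (ENSG00000117394.20, chr1:42925375-42959173, minus strand), measured 134, 129 and 134 CPM in vehicle cells and 156, 132 and 158 CPM after 30 µg/cm2. The groups overlapped, with a log2 fold-change of 0.17 ± 0.112 (adjusted p = 0.395) and an approximate 95% interval of -0.05 to 0.39. HK1, the constitutive hexokinase of most tissues, ranged from 146 to 231 CPM in vehicle cells and from 178 to 217 CPM in treated cells. HK2, the inducible hexokinase, measured 52.1, 21.9 and 44.6 CPM in vehicle cells and 60.1, 28.4 and 57.5 CPM in treated cells. HK2 was higher in the treated library of each experiment, by 0.20 to 0.37 on the log2 scale, and the 3-experiment log2 fold-change was 0.30 ± 0.287 (adjusted p = 0.595). PDK1 lay between 10.2 and 17.4 CPM in vehicle cells and between 13.5 and 17.2 CPM in treated cells. SLC2A3, the high-affinity transporter best known from neurons, was at 0.850 to 1.22 CPM in vehicle cells and 1.11 to 2.25 CPM in treated cells, with a log2 fold-change of 0.75 ± 0.316 (adjusted p = 0.16).

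With experiments 1 and 3 alone at 24 h, 5 of the 10 genes passed at 30 µg/cm2, where 19.1% of all genes did. These were LDHA, PGK1, ENO1 at -0.70 (adjusted p = 4.07e-05), PFKFB4 at -0.77 (adjusted p = 8.21e-05) and SLC2A3 at 1.12 (adjusted p = 0.014). The median log2 fold-change of the 10 genes over the 3 experiments was 0.09, beside 0.03 over all genes tested.

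**Figure D2:**
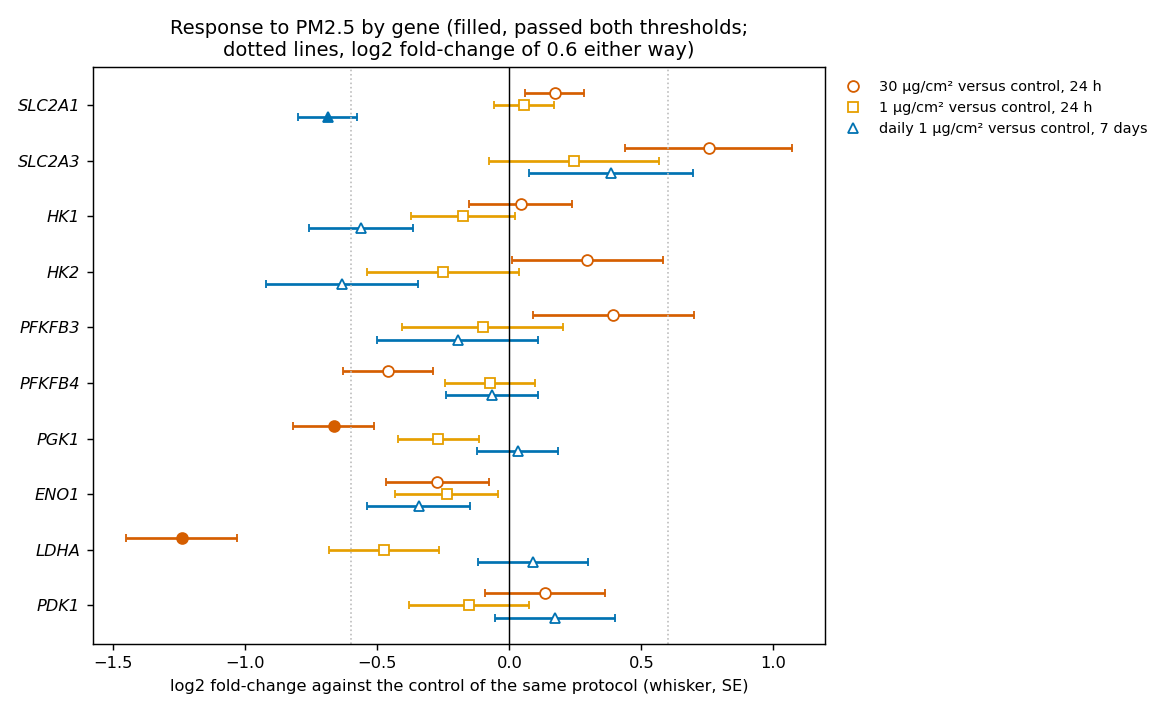
Log2 fold-change of each gene against the vehicle control of its own protocol, with whiskers of 1 SE from the edgeR fit of all 15 libraries; filled symbols passed both thresholds and dotted lines mark a log2 fold-change of 0.6. LDHA (-1.24) and PGK1 (-0.67) at 30 µg/cm2 and SLC2A1 (-0.69) after daily exposure are the filled symbols.

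The low dose was examined next. None of the 10 genes passed after 1 µg/cm2 for 24 h, where 0.0625% of all genes (11 genes) did. In the same comparison 534 genes reached an unadjusted p under 0.05, and neither DESeq2 (0.222% of all genes) nor the fit with the replicate block (0.42%) gave a call among the 10. No gene of the 10 was without overlap, where 4.44% of all genes were. LDHA measured 798, 802 and 947 CPM, against 897 to 1415 CPM in vehicle cells, and was lower than its own vehicle library in all 3 experiments, by 0.62, 0.16 and 0.58 on the log2 scale. Its log2 fold-change was -0.48 ± 0.208, with an unadjusted p of 0.0391 and an adjusted p of 1. PGK1 was likewise lower in 3 of 3 experiments (604, 616 and 679 CPM), at a log2 fold-change of -0.27 ± 0.153. SLC2A1 stayed at 129 to 143 CPM, with an approximate 95% interval of -0.16 to 0.28 for the log2 fold-change. The other 7 genes had log2 fold-changes between -0.25 and 0.24. The median over the 10 was -0.16, beside 0.01 over all genes tested.

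Between the doses, LDHA was 1.70-fold lower at 30 than at 1 µg/cm2, a log2 fold-change of -0.77 ± 0.209 (edgeR, adjusted p = 0.0332), and it was the only gene of the 10 to pass, where 7.84% of all genes did. The 402 to 667 CPM at the high dose lay below the 798 to 947 CPM at the low dose. This call was lost in 6 of 15 fits that left out 1 library (any vehicle library of the 7-day protocol, the 1 µg/cm2 library of experiment 3, or the 30 µg/cm2 library of experiment 1 or 3), with adjusted p-values up to 0.152, and in the fit of only these 2 conditions (0.176, where 0.918% of all genes passed). PGK1 also did not overlap between the doses, at a log2 fold-change of -0.40 ± 0.153 (adjusted p = 0.123). Wholly lower at the high dose were thus 2 of the 10 genes and 10% of all genes. PFKFB3 was higher at 30 than at 1 µg/cm2 by 0.47, 0.54 and 0.50 within the 3 experiments, the narrowest spread of the 10 genes in this comparison. With experiments 1 and 3 alone, 4 of the 10 genes passed between the doses (HK2 at 0.70, PFKFB4 at -0.72, PGK1 at -0.62, and LDHA), where 17.3% of all genes did.

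After daily exposure to the low dose SLC2A1 was lower, the hexokinase genes lay lower in every treated library, and the vehicle and treated libraries of PGK1 and LDHA overlapped. SLC2A1 measured 210, 206 and 243 CPM in vehicle cells of the 7-day protocol and 147, 139 and 123 CPM after daily 1 µg/cm2. Every treated library lay below every vehicle library, and the treated values overlapped those of vehicle cells at 24 h (129 to 134 CPM). SLC2A1 was 1.61-fold lower, with a log2 fold-change of -0.69 ± 0.113 (edgeR, adjusted p = 0.0302), and was the only gene of the 10 to pass, where 0.227% of all genes did. Within experiments 1, 2 and 3 it was lower by 0.52, 0.56 and 0.98 on the log2 scale. The log2 fold-change stayed between -0.74 and -0.61 in every alternative, but the adjusted p moved from 1.96e-08 to 0.246: the call was lost in 12 of 15 fits without 1 library and was kept in the 3 that left out a library of 24-h experiment 2. Fitted on the 7-day libraries alone its adjusted p was 0.00048, and 6.23% of all genes passed in that fit.

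The hexokinase genes lay below vehicle in all 3 experiments. HK2 (ENSG00000159399.9, chr2:74833981-74893359, plus strand) measured 48.0, 45.4 and 51.7 CPM in vehicle cells and 31.2, 30.2 and 32.1 CPM after daily exposure. Its log2 fold-change was -0.63 ± 0.288 (adjusted p = 0.405) without the replicate block and -0.63 ± 0.145 (adjusted p = 0.018) with it. HK2 thus passed with the block, where 4.39% of all genes did. Fitted on the 7-day libraries alone, without the block, it also passed (edgeR, adjusted p = 0.00036), where 6.23% of all genes did. HK2 and SLC2A1 also passed with 24-h experiments 1 and 3 alone beside the 7-day libraries, where 6.03% of all genes did. HK1 (ENSG00000156515.21, chr10:69269984-69401882, plus strand) measured 163, 159 and 168 CPM in vehicle cells and 119, 115 and 99.1 CPM after daily exposure. Its log2 fold-change of -0.56 ± 0.197 had an adjusted p of 0.264 (0.00656 with the block) and stayed under the size threshold in both fits. In total, 5 of the 10 genes (SLC2A1, HK1, HK2, PFKFB3 and ENO1) had every treated library below every vehicle library, and so did 21.6% of all genes.

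The other 7 genes had smaller log2 fold-changes. ENO1 measured 1143, 1080 and 1198 CPM in vehicle cells and 919, 873 and 903 CPM after daily exposure, a log2 fold-change of -0.34 ± 0.196 (adjusted p = 0.526). PFKFB3 went from 37.5 to 41.5 CPM in vehicle cells to 33.1 to 35.1 CPM, and PFKFB4 was at 10.2 to 12.4 and 10.2 to 10.6 CPM. SLC2A3 was at 0.996 to 1.22 CPM in vehicle cells and 0.953 to 1.81 CPM in treated cells. PGK1 measured 289, 277 and 300 CPM in vehicle cells and 279, 275 and 331 CPM in treated cells, and LDHA 431, 400 and 441 CPM and 410, 398 and 545 CPM. For LDHA the approximate 95% interval of the log2 fold-change was -0.32 to 0.50, whose lower bound lay above the -1.24 found at 30 µg/cm2. In experiment 3, the library that stood apart, the treated cells had the highest values of PGK1, LDHA and PDK1 (19.96 CPM, against 11.4 and 11.6 CPM in the other treated libraries) and the lowest of SLC2A1 and HK1. The summed epithelial markers were 1411 to 1561 CPM after daily exposure and 2270 to 2785 CPM in vehicle cells, the summed mesenchymal markers 209.1 to 294.1 and 299.7 to 360.2 CPM, and their part in these results was not tested. The median log2 fold-change of the 10 genes was -0.13, beside 0.01 over all genes tested.

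**Figure D3:**
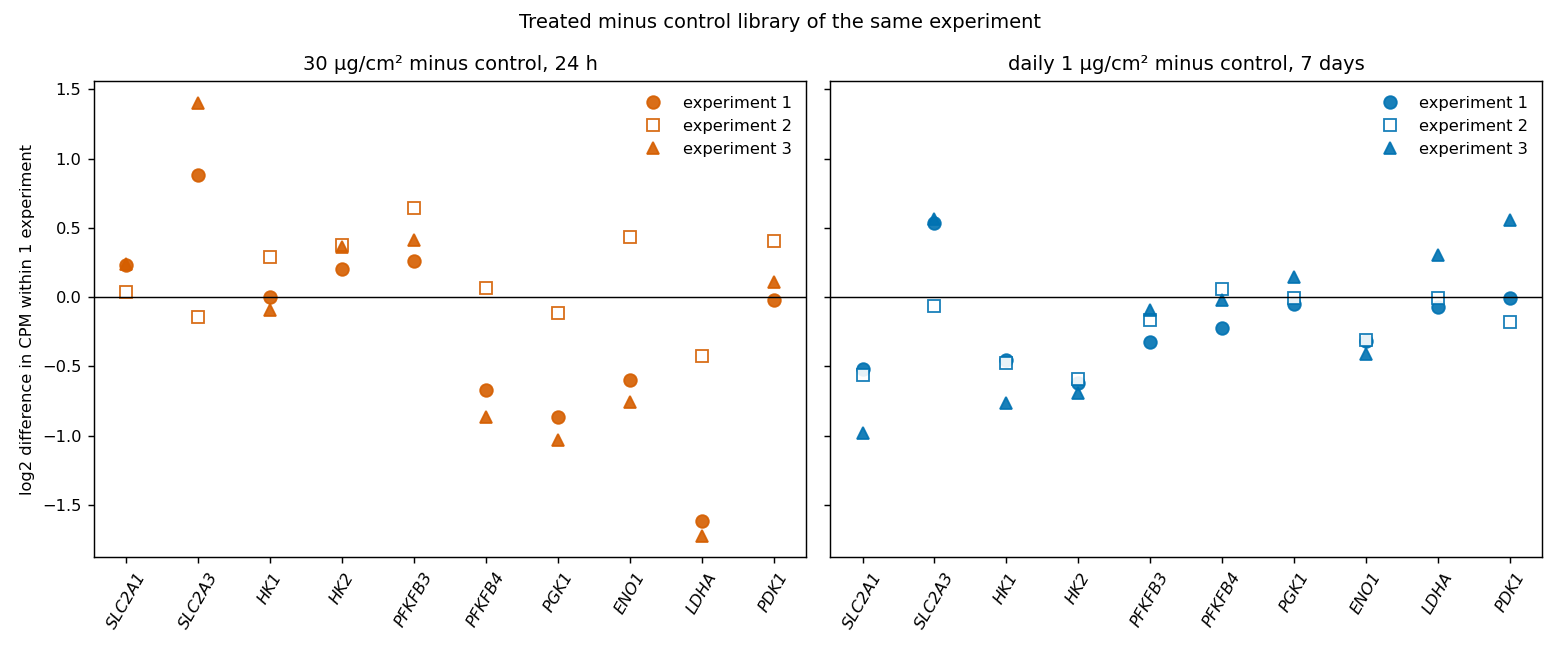
Log2 difference in CPM between the treated and the vehicle library of the same experiment, for 30 µg/cm2 at 24 h (left) and daily 1 µg/cm2 (right); the open square is experiment 2 of each protocol. At 24 h the squares of LDHA (-0.43) and PGK1 (-0.11) lie far above the other experiments and those of ENO1 and PFKFB4 lie above 0, while in the 7-day protocol SLC2A1, HK1, HK2, PFKFB3 and ENO1 lie below 0 in all experiments.

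Whether daily and single exposure differed was tested directly, as the difference of the 2 responses. These tests share control libraries with the comparisons above and with each other. The SLC2A1 response to daily 1 µg/cm2 was below its response to a single 30 µg/cm2 by 0.86 ± 0.159 on the log2 scale (edgeR, adjusted p = 0.0141), and the LDHA response was above it by 1.33 ± 0.295 (adjusted p = 0.0364). These were 2 of the 10 genes, where 1.82% of all genes passed. With the replicate block 6 of the 10 passed, where 14.6% of all genes did. The additional genes were HK1 at -0.63 (adjusted p = 0.00892), HK2 at -0.94 (0.00767), PFKFB3 at -0.62 (0.00592) and PGK1 at 0.70 (0.0279). Thus the transporter, the hexokinases and PFKFB3 had the lower response after daily exposure, and LDHA and PGK1 the higher. With 24-h experiments 1 and 3 alone 5 of the 10 passed (SLC2A1, HK2, PFKFB4 at 0.71, PGK1 and LDHA), where 21.6% of all genes did. The SLC2A1 call was lost without vehicle library 3 of the 7-day protocol or the 30 µg/cm2 library of experiment 1 or 3 (adjusted p up to 0.0617), and the LDHA call was lost in 10 of 15 fits without 1 library (up to 0.12). The LDHA call was kept without any library given 1 µg/cm2 at 24 h and without the vehicle or 30 µg/cm2 library of experiment 2.

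At the matched dose, no gene of the 10 and none of the 17599 tested passed for daily against single 1 µg/cm2 by the edgeR test, 0% of all genes. An unadjusted p under 0.05, which makes no allowance for the 17599 tests, was reached by 1245 genes. DESeq2 called 75 genes. SLC2A1 had the smallest unadjusted p of the 10, at 0.000371, with a difference of -0.74 ± 0.159 (adjusted p = 0.351). A replicate block gave -0.74 ± 0.134 (adjusted p = 0.044), so that SLC2A1 passed, where 1.03% of all genes did, and by DESeq2 its adjusted p was 0.00276, where 0.505% passed. With 24-h experiments 1 and 3 alone SLC2A1 (-0.78) and LDHA (0.68) passed, where 9.84% of all genes did. The difference for LDHA was 0.57 ± 0.294 (adjusted p = 0.76). Duration and number of doses changed together in this comparison.

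The vehicle controls were compared last, to show the levels from which each response started. Vehicle cells of the 7-day protocol had less transcript of ENO1, LDHA, PGK1 and PFKFB4 and more of SLC2A1. The summed mesenchymal markers were also lower in them, at 299.7 to 360.2 CPM against 491.5 to 788.5 CPM at 24 h. The summed epithelial markers overlapped (2270 to 2785 against 2004 to 2522 CPM). Of these 7 markers, CDH1 averaged 207.8 against 80.9 CPM and EPCAM 80.9 against 36.0 CPM, and the others are covered here only by the sum. The part of these markers in the results was not tested. ENO1 fell from 3245 to 4468 CPM at 24 h to 1080 to 1198 CPM, 3.35-fold lower, at a log2 fold-change of -1.75 ± 0.201 (edgeR, adjusted p = 5.01e-05). LDHA was 2.79-fold lower (-1.48 ± 0.212, adjusted p = 0.000241), PGK1 2.64-fold lower (-1.40 ± 0.156, adjusted p = 3.95e-05) and PFKFB4 2.33-fold lower (-1.22 ± 0.175, adjusted p = 0.000237). SLC2A1 was 1.67-fold higher (0.74 ± 0.113, adjusted p = 0.000391). These 5 genes did not overlap between the controls, as 52.3% of all genes did not, and each passed in all 15 fits without 1 library. Of all genes, 21.9% passed in this comparison, beside 5 of these 10. The vehicle levels of LDHA in the 7-day protocol, 400 to 441 CPM, overlapped those of cells given 30 µg/cm2 at 24 h, 402 to 667 CPM. SLC2A3, HK1, HK2, PFKFB3 and PDK1 did not pass, with log2 fold-changes of -0.27 to 0.29. No replicate block could be applied, since the experiments of the 2 protocols are different ones.

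**Figure D4:**
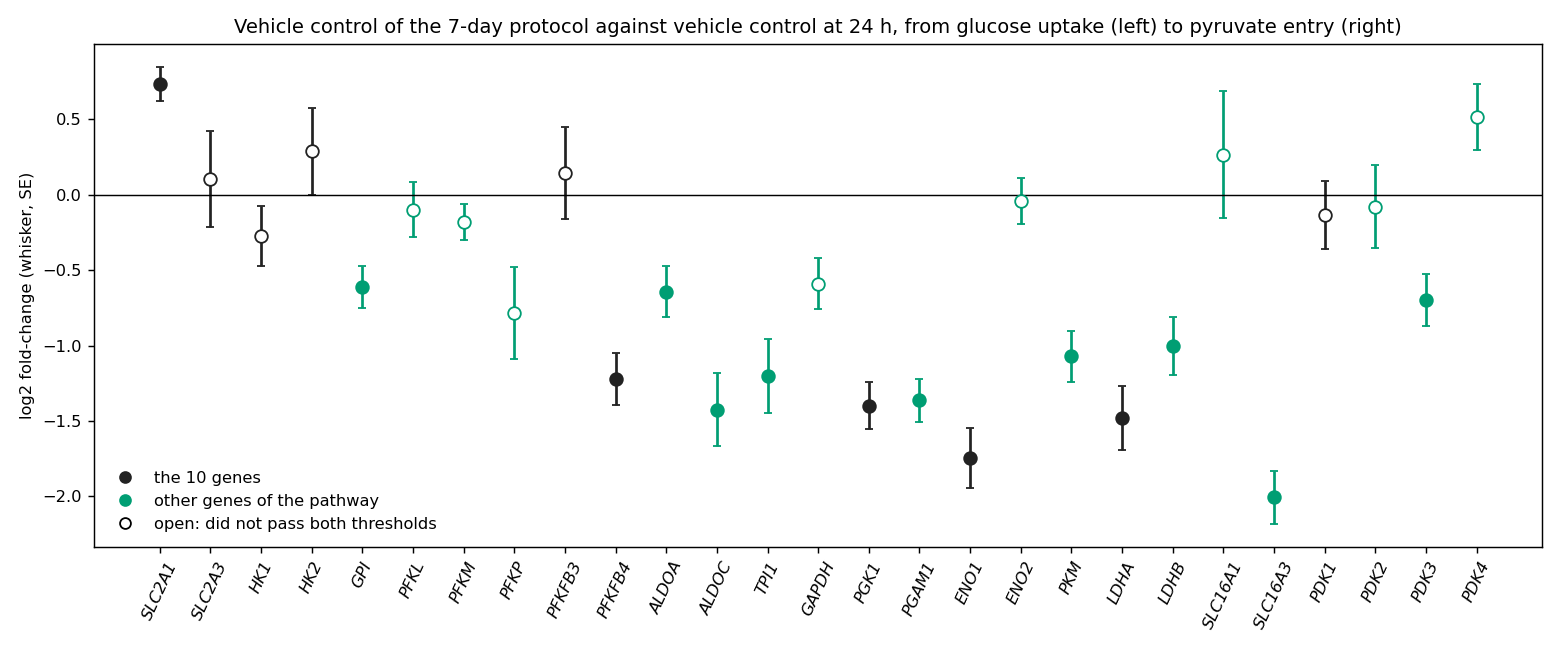
Log2 fold-change of the vehicle control of the 7-day protocol against the vehicle control at 24 h for the 10 genes (black) and 17 other genes of the pathway (green), from uptake to pyruvate entry; whiskers are 1 SE and filled symbols passed both thresholds. SLC2A1 (0.74) is the filled symbol above 0, and the lower enzymes from ALDOC to LDHB and the lactate exporter gene SLC16A3 (-2.01) lie below -0.5, except ENO2. PFKFB4 (-1.22), GPI and ALDOA lie below -0.5 as well.

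Paralogs were compared within libraries, per kilobase of exon. SLC2A3 was 0.00377 to 0.00868 of SLC2A1 in the means of the 5 conditions, so that nearly all transcript of the 2 transporters was SLC2A1. HK2 stood at 0.195 ± 0.0453 of HK1 in vehicle cells at 24 h and 0.296 ± 0.0107 in vehicle cells of the 7-day protocol. PFKFB4 was 0.812 ± 0.331 of PFKFB3 at 24 h and 0.280 ± 0.0172 in the 7-day protocol. LDHA was 0.557, 0.410 and 0.537 of LDHB, the heart-type subunit, in vehicle cells at 24 h and 0.263, 0.245 and 0.263 after 30 µg/cm2. The ratio was thus lower after 30 µg/cm2 in every experiment, and the treated SD was 0.0101, although the CPM of both genes in experiment 2 lay apart. After daily exposure the LDHA to LDHB ratio was 0.443 ± 0.0784, against 0.362 ± 0.00764 in vehicle cells. Exons of SLC2A1, HK1, HK2, ENO1 and PDK1 overlap a transcript on the other strand, those of SLC2A1 and PFKFB4 (with UCN2) also overlap one on the same strand, and the strand setting of the counting is not given in the sources used here. Counts on processed pseudogenes of these genes came to at most 0.335% of the gene's own counts, except for SLC2A3 with 6.27%.

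Other genes of the pathway were taken from lists. Of 23 other glycolytic enzyme genes, 19 were tested, and after 30 µg/cm2 PGAM1 (phosphoglycerate mutase, -0.84 ± 0.14, adjusted p = 0.00178) and PKM (pyruvate kinase, -0.62 ± 0.167, adjusted p = 0.0295) were lower. The hexokinase-like gene HKDC1 also passed, at 0.0602 to 0.177 CPM in vehicle cells, at or near the floor of 3 counts, and 0.555 to 2.04 CPM in treated cells. PGAM1, PKM and HKDC1 were 3 of the 19, where 8.07% of all genes passed. GAPDH (-0.29 ± 0.168, adjusted p = 0.331) and LDHB (-0.26 ± 0.19, adjusted p = 0.462) did not pass. With the replicate block PFKP (0.82) and ALDOC (-0.82) passed as well, where 15.2% of all genes did. None of the 19 passed after 1 µg/cm2 at 24 h or daily, where 0.0625% and 0.227% of all genes did. ALDOA (-0.63) was among 3 that passed after daily exposure with the block, where 4.39% of all genes did. Between the vehicle controls 7 of the 19 were lower in the 7-day protocol (PGAM1, TPI1, LDHB, PKM, ALDOA, ALDOC and GPI), none was higher, and all 19 had a log2 fold-change below 0, with a median of -0.61. Over all genes tested 10.8% were lower, and 8614 of 17599 had a log2 fold-change below 0, with a median of 0.02.

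Among 14 tested carriers of 18 listed, the transporter genes SLC2A12 (-1.42 ± 0.393, adjusted p = 0.0344) and SLC2A4 (-1.42 ± 0.337, adjusted p = 0.0156) were lower and SLC2A10 (0.65 ± 0.136, adjusted p = 0.00798) was higher after 30 µg/cm2. These were 3 of the 14, where 8.07% of all genes passed. None passed after daily exposure, where 0.227% of all genes did. SLC16A3, the lactate exporter, measured 761, 481 and 827 CPM in vehicle cells at 24 h and 608, 719 and 623 CPM after 30 µg/cm2, without passing. Between the vehicle controls SLC16A3 was lower in the 7-day protocol (165 to 178 CPM), at -2.01 ± 0.175 (adjusted p = 8.06e-06), and 5 other carrier genes were higher and 1 lower, where 11.1% of all genes were higher and 10.8% lower.

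Among 15 tested genes of fructose 2,6-bisphosphate control and pyruvate entry, of 17 listed, PDK4 passed after 30 µg/cm2, and with the replicate block PDK2 passed as well (-0.85, adjusted p = 2.52e-05). Of all genes, 8.07% passed without the block and 15.2% with it. PDK4, a starvation-responsive paralog of PDK1, measured 10.2, 13.8 and 9.28 CPM in vehicle cells and 3.29, 5.76 and 3.64 CPM in treated cells (-1.39 ± 0.226, adjusted p = 0.00153). It was also below vehicle in all 3 experiments of daily exposure, by 0.90, 0.85 and 0.95 on the log2 scale (adjusted p = 0.111, and 0.00451 with the block). PDK1 itself did not pass in any comparison.

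Of 23 regulators tested, TXNIP and ARRDC4, arrestin-like genes that respond to glucose and whose products limit glucose uptake, passed after daily exposure. These were 2 of the 23, where 0.227% of all genes passed. TXNIP measured 25.7, 24.8 and 13.96 CPM in vehicle cells and 119, 114 and 355 CPM after daily 1 µg/cm2, without overlap, a log2 fold-change of 3.19 ± 0.389 (adjusted p = 0.00675). ARRDC4 measured 5.09, 5.40 and 4.39 CPM in vehicle cells and 13.97, 14.99 and 35.4 CPM after daily exposure (2.11 ± 0.343, adjusted p = 0.0295). Among the treated libraries both were highest in experiment 3, the library that stood apart, where SLC2A1 was lowest. Among the vehicle libraries of this protocol both were lowest in experiment 3, where SLC2A1 was highest. TXNIP was lower in vehicle cells of the 7-day protocol than at 24 h (-2.50 ± 0.379, adjusted p = 0.000359), the opposite direction to SLC2A1. After 30 µg/cm2 at 24 h TXNIP was lower in 3 of 3 experiments, and ARRDC4 and SLC2A1 were both higher in 3 of 3. A link between these 2 regulators and SLC2A1 was not tested. HIF1A and MYC, which encode transcription factors of these genes, did not pass in any of these treatments, with log2 fold-changes of 0.18 and 0.31 after 30 µg/cm2 and of -0.29 and -0.31 after daily exposure. PPARGC1A, a coactivator of mitochondrial genes, was lower after 30 µg/cm2 (-1.78 ± 0.401, adjusted p = 0.0118). It was the only 1 of the 23 regulators to pass there, where 8.07% of all genes did.

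The genes whose log2 CPM followed SLC2A1 most closely over the 15 libraries were DUSP10 (Pearson r = 0.952), ADM (0.947), DCTN4 (0.925), KAT7 (0.921) and TRAF3IP2 (0.915). For PGK1 they were ANXA2 (0.988), LDOC1 (0.984), CAVIN1 (0.981), TMSB4X (0.980) and ARHGDIB (0.980). The 15 points share their protocol and experiment, so they are not independent. Within the 9 libraries at 24 h, with condition means subtracted, LDHA was the gene closest to PGK1 (r = 0.994), and there the points share the difference between experiment 2 and the others.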

How the data were processed

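RNA was poly-A selected and sequenced as single-end 50-base reads. The authors aligned reads with STAR and counted them per gene with featureCounts, and the deposited table holds raw counts for 15 libraries with exon coordinates and an exon length in bases per gene. The labels name hg19, the methods GRCh38, and the deposited coordinates are those of GRCh38, which is used here. Replicates are independent experiments.

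Genes were kept by filterByExpr and fitted with edgeR 4.0.16 (glmQLFit in its legacy mode, glmQLFTest, TMM) under R 4.3.3 on all 15 libraries, with 1 mean per condition and no block. The study's methods name edgeR and glmQLFit and state neither the libraries of the fit nor a block. Thresholds were an adjusted p of 0.05 and an absolute log2 fold-change of 0.6. SE is the log2 fold-change divided by the root of F, and approximate 95% intervals are based on it. The title of each library carries a number, taken here as that of its experiment. Same-numbered libraries of different conditions had correlations of deviations of 0.201 to 0.721 at 24 h and 0.121 to 0.181 in the 7-day protocol. Differently numbered libraries had -0.683 to 0.453 at 24 h, which overlaps, and -0.127 to -0.0341 in the 7-day protocol. A fit with the experiment as a replicate block is given where it changes a call. Promoter letters were searched in the RefSeq table. Alternatives were RLE factors, library totals, other filters, only the conditions compared, the current edgeR mode, the block, 24-h experiments 1 and 3 only, each library left out and DESeq2 1.42.0. The fit of those experiments together with the block was added after seeing the data. The fitting script was tested on simulated data. The 10 genes and the lists were chosen with earlier results of these data known. Named genes were the 10 genes, list genes that passed (at most 8 per comparison, by size), and GAPDH, PKM, LDHB, SLC16A3 and PDK4. Like genes were ranked by Pearson correlation of log2 CPM. Intervals rest on the spread between experiments as the fit estimates it, and the 3-count floor reflects counting only. Neither covers other sources of error. In the main fit the adjusted p-values rest on a spread shared by 5 conditions of 3 experiments each, from 1 cell line. Those of the 7-day comparisons therefore also depend on the 24-h libraries, and the reverse. A result for 1 list gene is not reported here.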

Additional observations from a re-analysis of the deposited data

Results flagged for a closer look

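By a test of the difference itself, 2 of the 10 genes differed between daily exposure and a single 30 µg/cm2, where 1.82% of all genes passed. With the replicate block 6 of the 10 did, where 14.6% of all genes passed. Dose and duration both differ in that comparison. At the matched dose no gene passed by edgeR without the block, and 1 of the 10 did with it, where 1.03% of all genes passed. For SLC2A1 the log2 response to daily 1 µg/cm2 minus that to a single 30 µg/cm2 was -0.86, and minus that to a single 1 µg/cm2, with the replicate block, it was -0.74. For LDHA the difference from the single 30 µg/cm2 response was 1.33. With the replicate block the differences from the single 30 µg/cm2 response were -0.63 for HK1, -0.94 for HK2, -0.62 for PFKFB3 and 0.70 for PGK1. No group held enough libraries for a check of single outlying values.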

How the results depend on the processing

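No direction of a called gene turned under any alternative. Of the comparisons, 1 µg/cm2 against vehicle at 24 h gave 0 of the 10 genes and the vehicle controls gave 5 in every alternative. The number of all genes passing moved with the setting, where 14655 to 36501 genes were tested. It was 2 to 590 for 1 µg/cm2 at 24 h and 2832 to 5564 for the vehicle controls. For 30 µg/cm2 against vehicle, 2 genes passed, against 0 with only those conditions fitted, 5 with 24-h experiments 1 and 3 only (also 5 with the replicate block added) and 1 to 4 with 1 library left out. In the same order, 1420, 360, 3430 (3699) and 794 to 2706 of all genes passed. For daily exposure 1 gene passed, against 0 with library totals and with no filter, 2 with only those conditions, 2 with the replicate block, 2 with experiments 1 and 3 (2 with the block added) and 0 to 1 with 1 library left out. The matching counts of all genes were 40, 35, 92, 1029, 773, 1083 (1353) and 0 to 104. For 30 against 1 µg/cm2, 1 passed, against 0 with only those conditions, 4 with experiments 1 and 3 (5 with the block added) and 0 to 3 with 1 library left out. Here 1379, 149, 3113 (3374) and 711 to 2715 of all genes passed. Daily minus single 1 µg/cm2 gave 0, against 1 with the replicate block, 1 with DESeq2, 2 with experiments 1 and 3 (2 with the block added) and 0 to 0 with 1 library left out. In that order the counts of all genes were 0, 181, 75, 1766 (2213) and 0 to 63. Daily minus single 30 µg/cm2 gave 2, against 1 with no filter, 6 with the replicate block, 5 with experiments 1 and 3 (5 with the block added), 3 with DESeq2 (adding PGK1 at 0.71) and 0 to 4 with 1 library left out. All genes passing numbered 320, 488, 2572, 3884 (4272), 787 and 131 to 1459. The replicate block changed no other call among the 10 genes. Apart from the construction of each alternative, the cause was not tested. RLE factors and the current edgeR mode changed none of the counts among the 10 genes by over 1.5 times. Depth limits SLC2A3, HKDC1 and other genes near 1 CPM.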
